A study of Mus musculus with 22 samples.

Results

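The kinesin genes were examined in fully grown mouse oocytes with mutations in the RNAi pathway, the piRNA pathway or both. They were chosen by name: every protein-coding gene of the table whose GENCODE symbol is Kif or Kifc followed by a number and at most 1 letter, except Kif4. The rule took 41 of 52636 genes, and it used no measured value. By their known roles, listed by hand from textbook knowledge, 14 act mainly in cell division, 16 in transport along microtubules, 8 in cilia or in the growth of microtubules, and 3 elsewhere.

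Kinesins are motor proteins that bind microtubules and hydrolyse ATP. Most walk towards the plus end of the microtubule with a cargo, those of the Kifc group walk towards the minus end, and a few do not walk but take microtubules apart at their tips. In oocytes they are best known for building the meiotic spindle, which forms without centrioles when the germinal vesicle (GV) breaks down. An oocyte at the GV stage stores mRNA for that division.

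RNA was sequenced from pools of GV oocytes of C57BL/6 mice, in a single-end run on Dicer alleles alone and a paired-end run on crosses of Dicer and Mili alleles, and the runs were kept apart. Mouse oocytes make a short Dicer variant from a promoter within the MT element of a Dicer intron, and this variant cuts long double-stranded RNA into siRNAs. The single-end run held 3 wild-type samples (Dicer WT/WT), 1 Dicer ΔMT/WT sample, 4 Dicer ΔMT/ΔMT samples, which lack that MT element, and 3 Dicer SOM/SOM samples. By the study's account a further element, MTA, can still drive a truncated Dicer in ΔMT/ΔMT oocytes, so that ΔMT/ΔMT is not a complete loss of the variant. The SOM allele encodes HA-tagged full-length Dicer without the introns that hold both promoters, and the line came from 1 embryonic stem cell clone. Mili DAH changes a catalytic residue of MILI, the Argonaute protein Piwil2 that cleaves transcripts in the piRNA pathway.

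All females of the paired-end run carried at least 1 SOM and 1 DAH allele, the controls too. The heterozygous control, with 1 mutant allele of each gene (Dicer SOM/WT and Mili DAH/WT), had 4 samples from females of 36, 38, 10 and 17 weeks (replicates 1o, 2o, 2 and 3). The RNAi mutant (Dicer SOM/SOM and Mili DAH/WT) had 2 samples from females of 17 and 13 weeks. The double mutant (Dicer SOM/SOM and Mili DAH/DAH) had 4 samples from 40, 35, 11 and 11 weeks (replicates 1o, 2o, 1 and 2), and the piRNA mutant (Dicer SOM/WT and Mili DAH/DAH) had 1 sample from 16 weeks. Values of these groups are given in these orders. The labels give no ages for the single-end run. By the study's methods the females that gave GV oocytes were superovulated or non-stimulated, and which of these gave the sequenced samples is not stated there. The study's captions speak of biological replicates for the single-end groups and for the double mutant and its control. Nothing in the labels says that samples of a group came from separate animals, so the p-values measure the spread between these samples.

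Total counts ran from 6468380 (SOM/SOM replicate 3) to 90713013 in the single-end run and from 22928937 to 43540806 in the paired-end run. Dicer1 itself, the targeted gene, averaged 1020 CPM (the count scaled to the size of the library) in wild type, 488 in ΔMT/ΔMT and 49.9 in SOM/SOM, and it averaged 640 in the heterozygous control, 58.0 in the RNAi mutant and 57.7 in the double mutant. All 10 oocyte markers were above 1 CPM in every group, and their sum was 12082 to 15873 CPM per sample, against 82.6 to 153 CPM for 10 granulosa cell markers. Of 9 B cell markers, Ms4a1 (27.3 to 64.9 CPM), Ighm (39.3 to 102) and Ighg1 (10.3 to 79.4) carried the signal while Cd79a, Cd79b, Jchain and Ptprc stayed at or below 0.440 CPM, and the summed list was lower in SOM/SOM (83.5 to 122 CPM) than in wild type (191 to 202). Its part in the kinesin results was not tested. Reads of Gm42418, a gene that overlaps ribosomal RNA, split the paired-end libraries into a set of 6 with 4086 to 5503 CPM and a set of 5 with 294 to 557. In the single-end run Gm42418 was at 5236 to 5825 CPM in wild type and 5238 to 7627 in ΔMT/ΔMT, and at 4798 to 17432 in SOM/SOM, where it was called higher (log2 1.07, adjusted p = 0.039). Its part in the SOM/SOM results was not tested.

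Kifc1, Kifc5b and Kif2c are on the study's list of potential siRNA targets, which was curated from small RNA data and not from these samples. In the GENCODE M21 transcripts (GRCm38), 5 of 41 members shared at least 30 windows of 21 bases in opposite orientation with a gene at another locus, counting windows held by at most 5 other genes. They were these 3 plus Kif2a and Kif24. With a gene at their own locus 11 members shared such windows, Kif5b, Kif27, Kif20a and Kif2a among them. The longest coding stretch that is an exact reverse complement of the other transcript is shown for each of the 3 listed genes, because the results turn on them. Each sequence is the mRNA strand 5′ to 3′ with 10 bases before the stretch in lower case and the stretch in capitals. All 3 cross an exon junction, so the genomic interval of the stretch, given before each sequence, includes an intron.

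Kifc1, chr17:33875828-33881450, minus strand: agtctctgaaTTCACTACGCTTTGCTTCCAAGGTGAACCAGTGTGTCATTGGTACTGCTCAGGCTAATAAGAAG

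Kifc5b, chr17:26926274-26932145, plus strand: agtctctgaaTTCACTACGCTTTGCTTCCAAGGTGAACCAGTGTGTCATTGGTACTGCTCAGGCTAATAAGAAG

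Kif2c, chr4:117162023-117162220, minus strand: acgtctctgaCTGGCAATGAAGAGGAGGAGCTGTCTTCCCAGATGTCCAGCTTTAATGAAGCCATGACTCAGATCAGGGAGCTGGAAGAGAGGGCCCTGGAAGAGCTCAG

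The Kifc1 and Kifc5b stretches are the same 64 bases, and both are complementary to Arhgap20os, a non-coding gene at chr9:51832814-51875886. The Kif2c stretch of 100 bases is complementary to Gm4961, a lincRNA at chr5:30092940-30097686. The counting ignored strand and divided reads with several map positions, so reads of these stretches can count for both the kinesin and its partner.

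Control oocytes held a wide range of kinesin levels, and kinesins of cell division made up most of them. On the RPKM scale (CPM per kilobase of exon), 14 members were at 10 or more in wild type, 14 between 1 and 10, 7 between 0.1 and 1 and 6 below 0.1. In the heterozygous control the same classes held 15, 13, 7 and 6 members. Division kinesins took 77.9% of the summed RPKM in wild type and 77.0% in the heterozygous control, and 13 of the 14 were above 1 RPKM in both, against 11 of 16 transport kinesins and 3 of 8 of cilia and microtubule growth.

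Kif23 (chr9:61917280-61946774), the motor subunit of centralspindlin that organises the spindle midzone, stood at the top with 190 ± 8.85 RPKM in wild type (SD, n = 3) and 211 ± 24.9 in the heterozygous control (SD, n = 4). Alone it gave 26.9% and 28.7% of the summed RPKM of the members, which leave out kinesins with other names such as Cenpe. Next in wild type came Kif14, a motor of cytokinesis, at 66.2 ± 4.10 RPKM and Kif22, a chromosome-arm motor, at 66.0 ± 2.74, which did not differ beyond their spread. Kif20b, another kinesin of late division, followed at 50.6 ± 5.54 RPKM, and then Kif17, Kif2c and Kif2a between 40.3 and 44.5 RPKM. The 7 highest members held 71.0% of the summed RPKM in wild type and 70.2% in the heterozygous control.

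Kif5a, the neuronal kinesin-1 heavy chain, was at 0.017 RPKM in wild type and 0.019 in the heterozygous control. Kif2b and Kif12 each had reads in 1 of 22 samples, Kif19a in 12 and Kif6 in 15, with at most 30 reads in any. A count of 0 allows up to 0.0331 to 0.464 CPM in the single-end libraries and 0.0689 to 0.131 CPM in the paired-end ones (3 counts, counting error only). These 4 genes entered no test, and Kif5a entered none in the paired-end run.

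**Figure D1:**
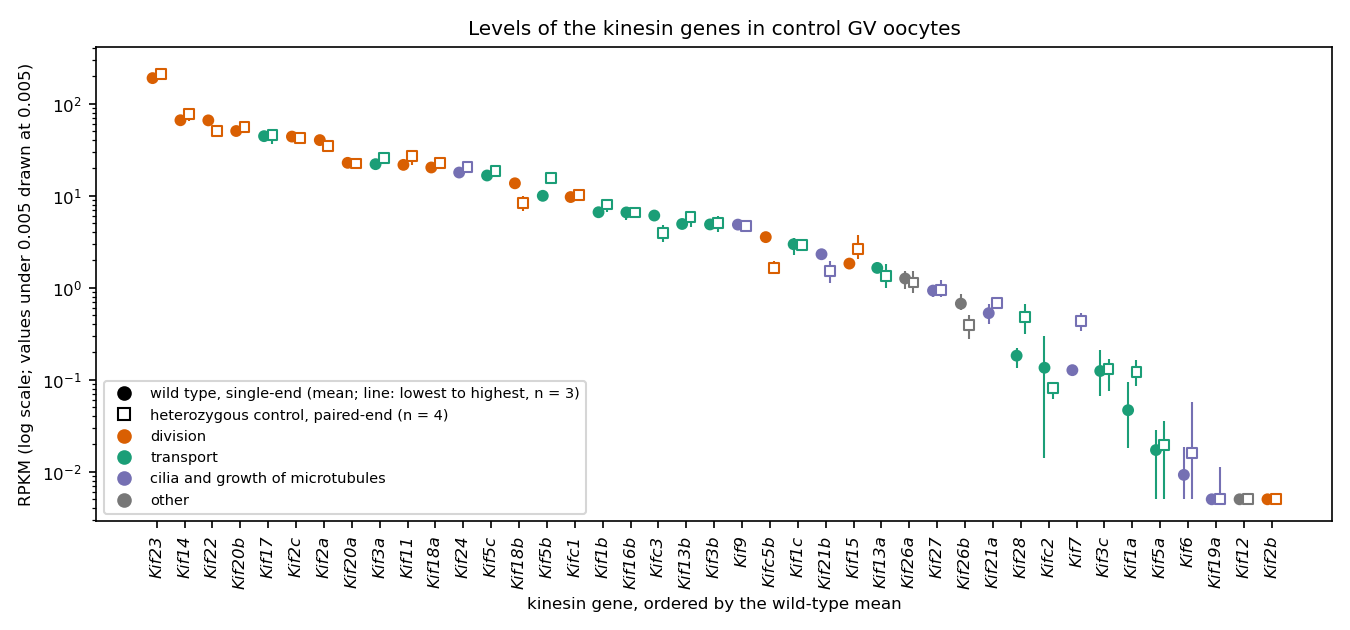
Mean RPKM on a log scale of the 41 kinesin genes in wild type (filled circles, n = 3) and heterozygous control (open squares, n = 4), with lines from the lowest to the highest sample and colours for the role. Kif23 stands above all others at 190 and 211 RPKM, and the division kinesins fill most of the upper places.

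The SOM/SOM and ΔMT/ΔMT oocytes were compared with wild type to ask what removing the MT promoter, or the short Dicer variants altogether, does to transcripts. Of 37 members tested, 9 were called in ΔMT/ΔMT (3 higher, 6 lower), which is 24.3% beside 15.4% of all 23151 genes tested, of which 8.06% were higher and 7.3% lower. That count of 9 rested on single samples: it was 5 without wild type replicate 1, 4 without wild type replicate 2, 5 without ΔMT/ΔMT replicate 2 and 5 without ΔMT/ΔMT replicate 3, 4 to 8 over all 7, and 14 when the compared groups were fitted alone. In SOM/SOM 11 were called (5 higher, 6 lower), 29.7% of the members beside 28.6% of all genes (14.5% higher, 14.2% lower), a share near that of all genes. Here called means an adjusted p under 0.05 in edgeR's quasi-likelihood test. The median log2 fold change of the members was -0.16 in ΔMT/ΔMT and -0.07 in SOM/SOM, beside 0.01 and 0.02 over all genes.

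Between the mutants, SOM/SOM against ΔMT/ΔMT, 5 of 37 members were called (4 higher, 1 lower), 13.5% beside 7.35% of all genes (4.03% higher, 3.32% lower). In the paired-end run 5 of 36 members were called in the RNAi mutant (4 higher, 1 lower), 13.9% beside 10.7% of all 20989 genes tested (7.07% higher, 3.64% lower). The count of 5 was 3 without RNAi mutant replicate 1, 2 without replicate 2, and 8 with DESeq2. In the double mutant 10 of 36 were called (4 higher, 6 lower), 27.8% beside 21.2% (12.3% higher, 8.84% lower). Comparisons within a run share their control samples. No member was called between the double mutant and the RNAi mutant by edgeR or DESeq2, beside 0.314% of all genes (0.31% higher, 0.00476% lower), and 2 members had an unadjusted p under 0.05.

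Across the 6 comparisons 15 members were called at least once and 22 were tested but never called. The share of all genes called at least once was not computed. Kifc1, Kifc5b, Kif2c and Kif5b were called higher both in SOM/SOM and in the RNAi mutant. Of 13 division kinesins tested, 2 rose and 3 fell in ΔMT/ΔMT and 3 rose and 4 fell in SOM/SOM, each against wild type. In the RNAi mutant 3 rose and 0 fell, and in the double mutant 3 rose and 2 fell. Of 16 transport kinesins tested, 1 rose and 2 fell in ΔMT/ΔMT, and 2 rose and 1 fell in SOM/SOM. Of 15 tested in the crosses, 1 rose and 1 fell in the RNAi mutant, and 1 rose and 3 fell in the double mutant. Over all genes 15.4% were called in ΔMT/ΔMT, 28.6% in SOM/SOM, 10.7% in the RNAi mutant and 21.2% in the double mutant. Nothing particular to a role is read from these counts. Among the kinesins of cilia and microtubule growth Kif27 was the sole call. The 22 never called included Kif3a and Kif3b, the motor subunits of kinesin-2. Those at 1 CPM or more in both groups differed by -0.46 to 0.66 on the log2 scale in SOM/SOM (17 members, lowest adjusted p = 0.055) and by -0.40 to 0.49 in the double mutant (18 members, lowest adjusted p = 0.082).

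**Figure D2:**
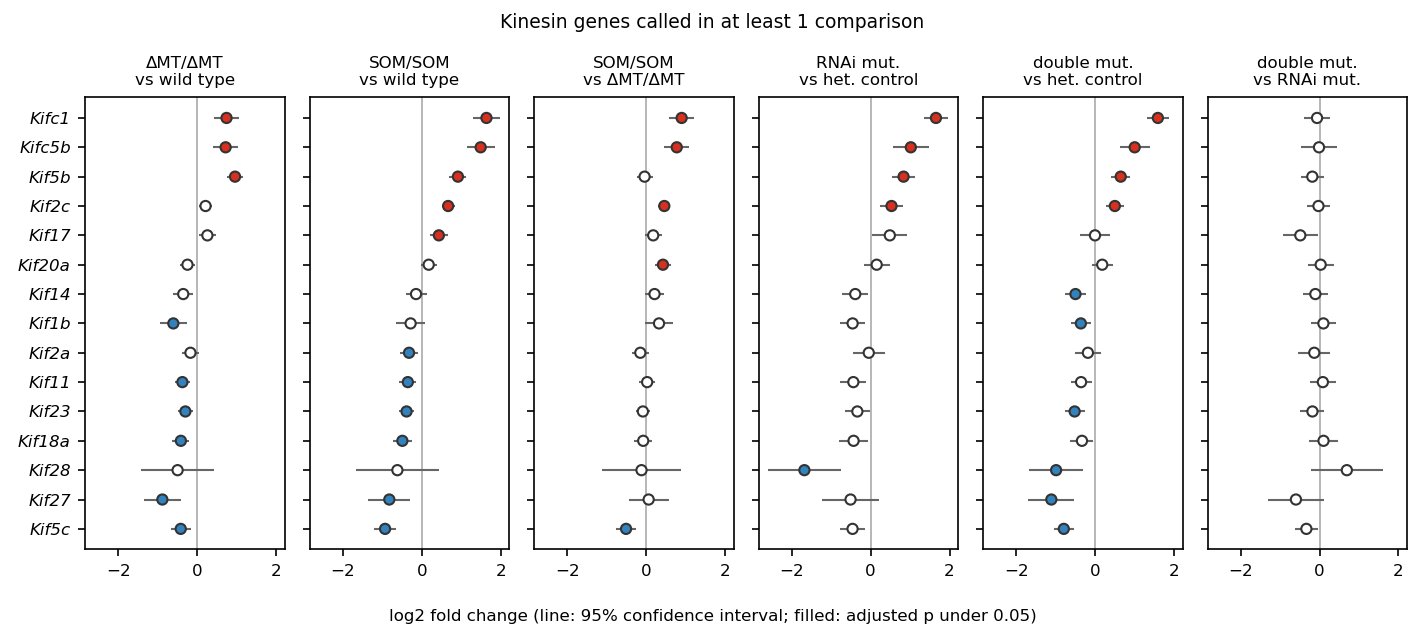
Log2 fold change of the 15 called kinesin genes in the 6 comparisons, with 95% confidence intervals; filled circles have an adjusted p under 0.05, red higher and blue lower. Kifc1, Kifc5b, Kif2c and Kif5b lie to the right against both controls, and no circle is filled in double mutant against RNAi mutant.

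Kifc1 (chr17:33875666-33890661) encodes the minus-end motor that slides and focuses spindle microtubules at the poles, and it had the largest rise of the members in SOM/SOM and in the crosses. Wild-type samples had 25.3, 21.4 and 21.5 CPM, ΔMT/ΔMT samples 34.9, 36.7, 39.9 and 40.6, and SOM/SOM samples 81.2, 78.0 and 52.1. The 3 groups did not overlap, and SOM/SOM replicate 3, the shallowest library, was the lowest of its group. The log2 fold change was 0.74 ± 0.15 (SE) in ΔMT/ΔMT (adjusted p = 0.0062) and 1.64 ± 0.16 in SOM/SOM (adjusted p = 2.6e-05), and SOM/SOM exceeded ΔMT/ΔMT by 0.90 ± 0.14 (adjusted p = 0.0039).

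Among the crosses Kifc1 was at 27.6, 20.9, 24.5 and 22.3 CPM in the heterozygous control, at 72.7 and 77.5 in the RNAi mutant and at 70.2, 67.7, 71.6 and 77.9 in the double mutant. All RNAi and double mutant samples lay above the control, and the piRNA mutant had 20.1 CPM. Against the control Kifc1 was 3.15-fold higher in the RNAi mutant (log2 1.66 ± 0.15, adjusted p = 6.1e-06) and 3.01-fold higher in the double mutant (log2 1.59 ± 0.13, adjusted p = 1.3e-06). Within the libraries of more and of less Gm42418, the double mutant exceeded the control by 1.51 and 1.68 on the log2 scale, with 2 samples against 2 in each.

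Kifc5b (chr17:26917091-26932579), a close copy of Kifc1, moved the same way at a lower level. It had 10.4, 8.65 and 8.96 CPM in wild type, 13.4, 14.8, 17.1 and 16.0 in ΔMT/ΔMT and 29.2, 28.8 and 19.7 in SOM/SOM. It had 5.12, 4.07, 4.25 and 3.77 CPM in the heterozygous control, 8.22 and 9.22 in the RNAi mutant and 9.60, 9.44, 7.43 and 8.06 in the double mutant. No mutant sample overlapped its control. Its log2 fold change was 0.72 in ΔMT/ΔMT (adjusted p = 0.0082), 1.49 in SOM/SOM (adjusted p = 5.8e-05), 1.02 in the RNAi mutant (adjusted p = 0.0056, and 0.079 without RNAi mutant replicate 2) and 1.0 in the double mutant (adjusted p = 0.0010).

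These copies cannot be read fully apart. Reads that map to both were divided between them, so Kifc1 reads can add to the Kifc5b value. How much of the Kifc5b rise is its own was not tested, and its calls are not independent of those of Kifc1. Of the windows of 50 bases in Kifc1 transcripts 38.6% also occur in Kifc5b, and 36.6% the other way. For windows of 75 bases, the read length of the paired-end run, these shares were 25.4% and 24.5%. Pseudogenes held fewer of the Kifc1 windows of 50 bases, with 1.94% in Gm20763 and 1.52% in Kifc5c-ps. Kifc5b had 35.9% to 42.8% of the Kifc1 CPM in the wild-type, ΔMT/ΔMT and SOM/SOM samples but 16.9% to 19.4% in the heterozygous control and 10.3% to 13.9% in the double mutant. Counted as 1 gene, an alternative added after the data were seen, they rose by 0.74 (log2) in ΔMT/ΔMT, 1.60 in SOM/SOM, 1.58 in the RNAi mutant and 1.52 in the double mutant, and all these stayed called.

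Kif2c (chr4:117159639-117182639), the kinesin that takes microtubules apart at centromeres and so corrects their attachment, rose less but evenly. Wild type had 141, 134 and 146 CPM, ΔMT/ΔMT 157, 157, 169 and 166, and SOM/SOM 218, 234 and 216. Every ΔMT/ΔMT sample lay above wild type, yet the difference of 0.21 ± 0.07 on the log2 scale was not called (adjusted p = 0.066), and DESeq2 called it (adjusted p = 0.044). SOM/SOM was 1.59-fold above wild type (adjusted p = 8.0e-05) and 1.37-fold above ΔMT/ΔMT (adjusted p = 0.0032).

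Among the crosses Kif2c had 130, 146, 136 and 128 CPM in the heterozygous control, 198 and 192 in the RNAi mutant and 164, 201, 194 and 207 in the double mutant. No mutant sample overlapped the control. The log2 fold change was 0.53 in the RNAi mutant (adjusted p = 0.018) and 0.50 in the double mutant (adjusted p = 0.0049). The former call was lost without RNAi mutant replicate 1 (adjusted p = 0.14), RNAi mutant replicate 2 (0.094) or heterozygous control replicate 3 (0.051).

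The genes with complementary sequence, found by the search here and not taken from the study, had values of their own. These count the whole gene without strand, and the level of the complementary stretches alone was not measured. Gm4961, the partner of Kif2c, had 101, 97.0 and 103 CPM in wild type, 160 to 166 in ΔMT/ΔMT and 186, 208 and 148 in SOM/SOM. It was called higher in ΔMT/ΔMT (log2 0.69, adjusted p = 0.0012), SOM/SOM (0.86, 0.00020), the RNAi mutant (1.21, 0.00041) and the double mutant (1.15, 8.7e-05). Arhgap20os, the partner of Kifc1 and Kifc5b, was at 780 to 950 CPM in wild type, and its difference in SOM/SOM was 0.08 (95% confidence interval -0.16 to 0.32). In ΔMT/ΔMT it had 1070 to 1157 CPM, above every wild-type sample, with a difference of 0.33 (0.10 to 0.56, adjusted p = 0.053). In the double mutant it was called higher (log2 0.65, adjusted p = 0.0067), and in the RNAi mutant its difference was 0.57 (adjusted p = 0.060).

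**Figure D3:**
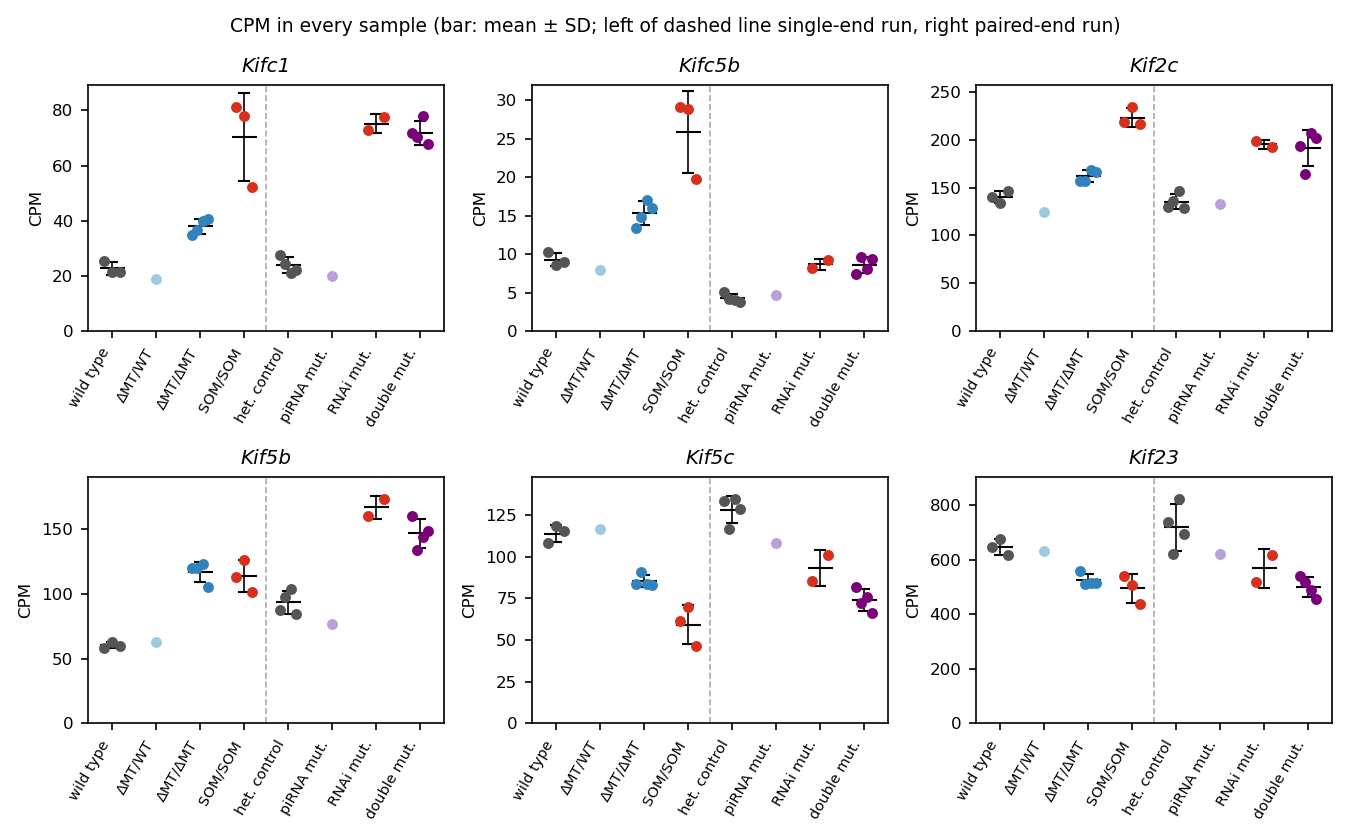
CPM of 6 kinesin genes in each of the 22 samples, with mean ± SD of each group of 2 or more. Within the single-end run Kifc1, Kifc5b and Kif2c are highest in SOM/SOM, and in the RNAi and double mutants they are above the heterozygous control; Kif5b is raised about equally in ΔMT/ΔMT and SOM/SOM, while Kif5c and Kif23 are lower in the mutants.

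Kinesin-1 carries vesicles, mitochondria and RNA granules, and its heavy chains Kif5a, Kif5b and Kif5c can stand in for each other in part. Kif5b and Kif5c moved in opposite directions. Kif5b, the chain used in most cells, had 58.2, 62.7 and 59.8 CPM in wild type, 120, 120, 123 and 106 in ΔMT/ΔMT and 113, 126 and 102 in SOM/SOM.

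Both mutants lay far above wild type for Kif5b, and they overlapped each other. The rise was 1.94-fold in ΔMT/ΔMT (log2 0.96 ± 0.09, adjusted p = 9.3e-05) and 1.89-fold in SOM/SOM (0.92 ± 0.10, adjusted p = 5.9e-05). SOM/SOM against ΔMT/ΔMT gave -0.04 (95% confidence interval -0.24 to 0.16), whereas Kifc1, Kifc5b and Kif2c were each called higher in SOM/SOM than in ΔMT/ΔMT. With Mili alleles in the cross Kif5b went from 87.5, 104, 97.8 and 84.7 CPM in the heterozygous control to 160 and 173 in the RNAi mutant (log2 0.83, adjusted p = 0.00098) and 134, 148, 160 and 144 in the double mutant (0.65, 0.00094). It is not on the list of potential siRNA targets. Of Kif5b windows of 50 bases 1.66% lie on the opposite strand of AC113003.1 and 1.16% of Gm17036, both at its own locus. Reads of these stretches cannot be told apart without strand.

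Kif5c (chr2:49619298-49774778), a chain best known from neurons, fell. Its values were 108, 118 and 115 CPM in wild type, 83.6, 90.5, 83.4 and 83.2 in ΔMT/ΔMT and 61.4, 69.8 and 46.4 in SOM/SOM. The 3 groups were ordered without overlap. Kif5c was called lower in SOM/SOM (log2 -0.93 ± 0.13, adjusted p = 0.00030), in ΔMT/ΔMT (-0.42 ± 0.12, adjusted p = 0.032) and in SOM/SOM against ΔMT/ΔMT (-0.51 ± 0.12, adjusted p = 0.026). The call in ΔMT/ΔMT was lost on leaving out any 1 of the 7 samples (adjusted p = 0.054 to 0.11), and that between the mutants without ΔMT/ΔMT replicate 1, 2 or 4 or SOM/SOM replicate 1 (0.051 to 0.078).

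Among the crosses Kif5c had 134, 134, 116 and 128 CPM in the heterozygous control, 85.6 and 101 in the RNAi mutant and 72.0, 66.0, 81.7 and 75.9 in the double mutant. The double mutant was lower by a log2 fold change of -0.79 (adjusted p = 0.00023). The RNAi mutant differed by -0.46 (adjusted p = 0.057), and it was called without heterozygous control replicate 2 (0.034) and by DESeq2 (0.020). Double mutant against RNAi mutant gave -0.34 (95% confidence interval -0.64 to -0.04, adjusted p = 0.93).

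Per length, Kif5c made up 62.0% to 62.9% of kinesin-1 heavy chain RPKM in wild type, 37.4% to 40.9% in ΔMT/ΔMT and 28.6% to 32.7% in SOM/SOM. It made up 51.1% to 57.3% in the heterozygous control, 32.0% and 33.9% in the RNAi mutant and 28.1% to 32.1% in the double mutant. By this share Kif5c was the main chain in all control samples and Kif5b in all samples homozygous for ΔMT or SOM. The ΔMT/WT library (61.9%) and the piRNA mutant (55.1%) lay near their controls. The share was chosen after the values were seen and carries no test. Each sample was a pool of GV oocytes, so a change in every oocyte and a larger change in some of them cannot be told apart.

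**Figure D4:**
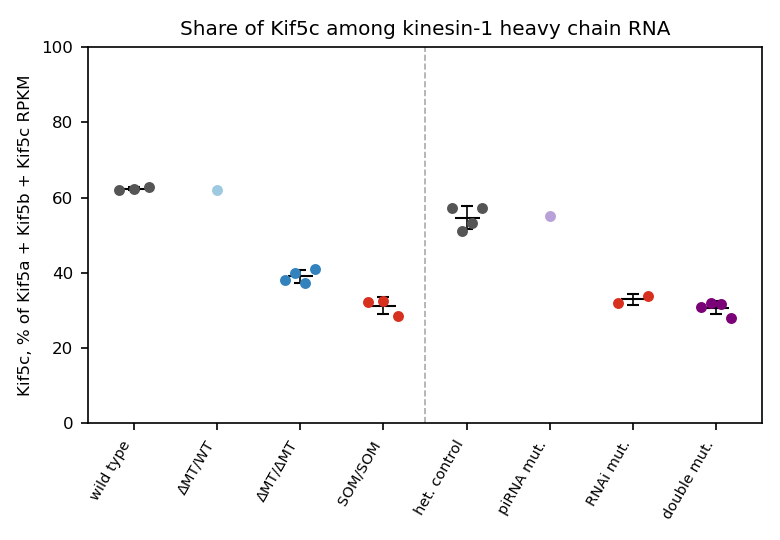
Share of Kif5c in the summed RPKM of Kif5a, Kif5b and Kif5c in each sample, in percent, with mean ± SD. Control samples sit between 51.1% and 62.9%, and samples homozygous for ΔMT or SOM between 28.1% and 40.9%.

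Among the division kinesins that fell, Kif23 had the highest level. It had 646, 677 and 616 CPM in wild type, 558, 512, 515 and 514 in ΔMT/ΔMT and 542, 506 and 436 in SOM/SOM. No mutant sample reached the lowest wild-type one. SOM/SOM was lower by a log2 fold change of -0.38 ± 0.09 (adjusted p = 0.0081) and ΔMT/ΔMT by -0.30 ± 0.08 (adjusted p = 0.032).

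The Kif23 call in ΔMT/ΔMT was lost without wild type replicate 1, 2 or 3 or ΔMT/ΔMT replicate 2, 3 or 4 (adjusted p = 0.054 to 0.13). The heterozygous control had 737, 822, 619 and 693 CPM, the RNAi mutant 518 and 618 and the double mutant 516, 457, 541 and 489. The double mutant was lower (log2 -0.52 ± 0.12, adjusted p = 0.0056), and the RNAi mutant gave -0.34 (adjusted p = 0.17).

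Kif11, the motor that pushes spindle poles apart, and Kif18a, which damps chromosome movement at the metaphase plate, were also lower in both single-end mutants. Kif11 had 102 to 107 CPM in wild type, 78.6 to 85.1 in ΔMT/ΔMT (log2 -0.38, adjusted p = 0.017) and 70.5 to 91.9 in SOM/SOM (-0.35, 0.020). It lost the call in ΔMT/ΔMT without wild type replicate 1 or 3 or ΔMT/ΔMT replicate 2 or 3 (0.051 to 0.064) and in SOM/SOM without wild type replicate 1 or 3 (0.054 to 0.059). Kif18a went from 64.0 to 74.2 CPM in wild type to 45.3 to 56.2 in ΔMT/ΔMT (log2 -0.42, adjusted p = 0.016, and 0.084 without wild type replicate 2) and 45.3 to 53.1 in SOM/SOM (-0.49, 0.0060).

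Neither gene was called in the paired-end run. Kif11 differed by -0.44 in the RNAi mutant (adjusted p = 0.093) and -0.36 in the double mutant (adjusted p = 0.057), and without heterozygous control replicate 1o these became 0.036 and 0.019. DESeq2 called the latter (adjusted p = 0.039). Kif18a differed by -0.43 (adjusted p = 0.13) and -0.33 (adjusted p = 0.10, and 0.026 without double mutant replicate 2).

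Kif14 was called lower in the double mutant alone. It had 723, 730, 579 and 717 CPM in the heterozygous control, 482 and 566 in the RNAi mutant and 535, 447, 541 and 421 in the double mutant. No RNAi or double mutant sample overlapped the control, the difference in the double mutant was -0.50 ± 0.12 (adjusted p = 0.010), and that in the RNAi mutant -0.39 (adjusted p = 0.14). The single-end samples had 630, 590 and 557 CPM in wild type, 495, 457, 419 and 481 in ΔMT/ΔMT and 646, 462 and 500 in SOM/SOM. The difference in ΔMT/ΔMT was -0.36 (adjusted p = 0.056), and DESeq2 called it (adjusted p = 0.021).

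Kif20a, a kinesin of cytokinesis, differed between the mutants: 70.0, 77.1, 76.8 and 67.6 CPM in ΔMT/ΔMT and 95.9, 103 and 94.3 in SOM/SOM. SOM/SOM was 1.34-fold higher (log2 0.42, adjusted p = 0.015), while wild type, at 81.5 to 95.7 CPM, lay above ΔMT/ΔMT (-0.25, adjusted p = 0.081) and overlapped SOM/SOM. Of Kif20a windows of 50 bases 25.2% lie on the opposite strand of Cdc23, whose reads cannot be told apart in a library without strand. Kif2a, a relative of Kif2c that acts at spindle poles, was lower in SOM/SOM (log2 -0.32, adjusted p = 0.038), a call lost without wild type replicate 1 or 2 or any SOM/SOM replicate (0.063 to 0.13). Of its windows 17.9% lie opposite Dimt1.

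Kif22 and Kif20b, next after Kif14 in wild type, were called in no comparison. Kif22 had 142, 133 and 144 CPM in wild type, 105 to 126 in ΔMT/ΔMT and 152, 148 and 81.8 in SOM/SOM, where replicate 3 stood apart. Its paired-end values ran from 97.7 to 115 CPM in the control and from 91.4 to 135 in the RNAi and double mutants. Kif20b ran from 249 to 310 CPM in wild type, 264 to 324 in ΔMT/ΔMT and 211 to 268 in SOM/SOM, and from 294 to 329 in the heterozygous control and 251 to 378 in the RNAi and double mutants. For Kif20b all mutant groups overlapped their controls, while Kif22 was below wild type in every ΔMT/ΔMT sample and above the control in both RNAi mutant samples (118 and 135 CPM), without a call.

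Kif17, a kinesin-2 that moves receptors in dendrites and enters cilia, was the transport kinesin of highest level and rose in SOM/SOM. It had 155, 157 and 148 CPM in wild type, 165, 166, 206 and 197 in ΔMT/ΔMT and 210, 193 and 221 in SOM/SOM, a log2 fold change of 0.43 ± 0.10 in the latter (adjusted p = 0.0094). In the crosses the RNAi mutant had 209 and 230 CPM against 125 to 182 in the control (log2 0.49, adjusted p = 0.17), and the double mutant ran from 116 to 207. Double mutant against RNAi mutant gave -0.49 with an unadjusted p of 0.033 (adjusted p = 0.95 in edgeR).

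Kif27 (chr13:58287502-58359122), a relative of the Hedgehog regulator Kif7 needed for motile cilia, was the member of cilia that fell. It was weakly expressed, with 5.41, 4.79 and 4.09 CPM in wild type, 1.67, 3.34, 2.59 and 2.71 in ΔMT/ΔMT and 3.0, 2.75 and 2.03 in SOM/SOM. Of Kif27 windows of 50 bases 4.55% lie on the opposite strand of Gm26555. The log2 fold change of Kif27 was -0.88 in ΔMT/ΔMT (adjusted p = 0.019) and -0.82 in SOM/SOM (adjusted p = 0.027). The first was lost without wild type replicate 1 or 2 (0.060 to 0.079), and the second without wild type replicate 1 or 2 or SOM/SOM replicate 2 or 3 (0.060 to 0.085).

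Kif27 in the heterozygous control had 4.03, 4.80, 6.19 and 4.39 CPM, and in the double mutant 1.73, 1.78, 2.07 and 3.45. The double mutant was lower by -1.11 ± 0.27 on the log2 scale (adjusted p = 0.0094), and no double mutant sample overlapped the control. The RNAi mutant, at 2.59 and 4.18 CPM, gave -0.51 (adjusted p = 0.40).

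Kif1b (chr4:149176319-149307692), a kinesin-3 for mitochondria and vesicle precursors, was at 89.5, 108 and 99.6 CPM in wild type and at 66.9, 60.8, 65.1 and 67.6 in ΔMT/ΔMT (log2 -0.61, adjusted p = 0.024). SOM/SOM spread from 55.4 to 97.8 CPM, into the wild-type range, and was not called (-0.28, adjusted p = 0.24). In the double mutant (87.8, 103, 91.5 and 93.1 CPM) it was lower than in the control (124, 125, 99.5 and 133 CPM) by -0.36 (adjusted p = 0.043), with 1 value in overlap. The call in ΔMT/ΔMT was lost without wild type replicate 2 or 3 or ΔMT/ΔMT replicate 2 or 3 (adjusted p = 0.060 to 0.095), and that in the double mutant without double mutant replicate 1o, 1 or 2 or control replicate 1o, 2o or 3 (0.062 to 0.12). The RNAi mutant gave -0.46 (adjusted p = 0.065, 0.013 without heterozygous control replicate 2, and 0.023 in DESeq2).

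Kif28, a kinesin-3 of low level, had 1.40, 1.1, 2.33 and 2.02 CPM in the heterozygous control, 0.519 and 0.543 in the RNAi mutant and 1.08, 0.790, 0.889 and 0.677 in the double mutant. Both mutants lay below every control sample. Of Kif28 windows of 50 bases 2.87% also occur in Ahctf1 at its own locus, in the same orientation. Kif28 was called lower in the RNAi mutant (log2 -1.68 ± 0.43, adjusted p = 0.021) and in the double mutant (-0.99 ± 0.32, adjusted p = 0.040). The first call was lost without either RNAi mutant sample (0.16 and 0.17), the second without double mutant replicate 2o, 1 or 2 or control replicate 1o, 2 or 3 (0.051 to 0.11), and in the single-end run Kif28 was below 1 CPM throughout and not called.

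The other calls of the double mutant kept their sign within the libraries of more and of less Gm42418. In that order the log2 differences from the control were 0.94 and 1.07 for Kifc5b, 0.46 and 0.53 for Kif2c and 0.77 and 0.54 for Kif5b. They were -0.77 and -0.82 for Kif5c, -0.44 and -0.59 for Kif23, -0.42 and -0.58 for Kif14, and -1.16 and -1.13 for Kif27. Kif1b gave -0.52 and -0.19, and Kif28 gave -0.78 and -1.13. Both RNAi mutant samples were among the libraries of more Gm42418, where they differed from the control by 1.60 for Kifc1, 0.99 for Kifc5b, 0.59 for Kif2c, 0.95 for Kif5b and -1.66 for Kif28.

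The double mutant was set against the RNAi mutant to ask what the loss of MILI cleavage adds when RNAi is already lost. For the genes that rose, the differences were near 0: -0.06 for Kifc1 (95% confidence interval -0.39 to 0.26), -0.02 for Kifc5b (-0.47 to 0.44), -0.03 for Kif2c (-0.32 to 0.26) and -0.19 for Kif5b (-0.48 to 0.11). The median over the 36 members was -0.06, beside 0.01 over all genes. With 2 RNAi mutant samples these intervals are wide.

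The ΔMT/WT and piRNA mutant groups, with 1 sample each, had no replicate check. In the ΔMT/WT library 14 of 37 members lay inside the wild-type range, 11 above and 12 below, and 1 of those outside, Kif5a, was more than 1 log2 unit from the wild-type mean. Kifc1 (18.8 CPM), Kifc5b (7.94) and Kif2c (124) were below all wild-type samples there, and Kif5b (62.8) was close to the highest of them. In the piRNA mutant 21 of 36 lay inside the control range, 3 above and 12 below, none by more than 1 log2 unit, and Kif5b (77.1 CPM) and Kif5c (108) were both below it. The share of all genes outside these ranges was not computed, so these counts are not read as a result about the kinesins.

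A list of 22 kinesin partners and spindle proteins that work with kinesins was tested beside the members. It also holds Cenpe, a kinesin whose name falls outside the rule, at a mean of 790 CPM in wild type and 904 in the heterozygous control. Of 19 tested, 1 was higher and 1 lower in ΔMT/ΔMT (beside 15.4% of all genes called) and 4 were higher and 1 lower in SOM/SOM (beside 28.6%). Of 18 tested in the paired-end run, 2 were higher and 0 lower in the RNAi mutant (beside 10.7%) and 2 higher and 1 lower in the double mutant (beside 21.2%). Nothing particular to the list is read from these counts. Prc1, the midzone bundler that binds several kinesins and is itself on the study's list of potential siRNA targets, rose from 327, 328 and 332 CPM in wild type to 586, 646, 639 and 585 in ΔMT/ΔMT and 918, 883 and 790 in SOM/SOM (log2 0.90, adjusted p = 4.2e-05, and 1.39, adjusted p = 1.1e-06). It also rose in the RNAi mutant (1.38, adjusted p = 3.5e-06) and the double mutant (1.19, adjusted p = 1.6e-06). The kinesin-1 light chains Klc1, Klc3 and Klc4 were called in no comparison, and Klc2 was lower in ΔMT/ΔMT (-0.44, adjusted p = 0.041).

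Hmmr, a spindle assembly protein on that list of 22, separated the double mutant from the RNAi mutant. It was the 1 call among the 18 of the list tested there, beside 0.314% of all genes. It had 21.0, 17.4, 16.2 and 22.2 CPM in the heterozygous control, 38.7 and 31.2 in the RNAi mutant and 109, 105, 121 and 115 in the double mutant. The piRNA mutant library had 18.2 CPM. Hmmr was called higher than the control in the RNAi mutant (log2 0.86, adjusted p = 0.0034) and in the double mutant (2.55, 4.7e-08). It was also called higher in SOM/SOM against wild type (0.97, 0.00073) and against ΔMT/ΔMT (0.56, 0.035), and not in ΔMT/ΔMT against wild type (0.41, 0.070). The log2 fold change of the double mutant against the RNAi mutant was 1.69 ± 0.18 (adjusted p = 0.00038), and over 14 alternatives it ran from 1.54 to 1.87 and stayed called in all (adjusted p at most 0.026).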

How the data were processed

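Per the methods and labels, the authors mapped reads with STAR 2.5.3a to GRCm38, keeping multimapping reads, and counted them with featureCounts on GENCODE M15 without strand, dividing reads among positions and overlapping genes. The deposited values are estimated counts per gene, unnormalized; the deposited gene length served for RPKM. A deposited list of repeat names was not used here. Names, coordinates and transcripts came from GENCODE M21 (52489 of 52636 IDs matched).

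Counts were rounded and each run was fitted with edgeR 4.0.16 in R 4.3.3 (filterByExpr, minimum count 10, total 15; TMM; quasi-likelihood F test; Benjamini-Hochberg over all genes). The ΔMT/WT library was left out of the single-end fit. CPM and RPKM use TMM-scaled libraries. The fit was tested on simulated data. Alternatives were DESeq2 1.42.0, its size factors, other filters, the compared groups alone, a replicate block, age and Gm42418 terms, and each sample left out.

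Genes described in full (14) were the 5 highest in wild type by RPKM, the 3 on the siRNA target list, up to 5 largest called changes of at least 1 CPM per comparison, and members called alike in SOM/SOM and the RNAi mutant; Kif11, Kif18a and Kif2a, called but outside this rule, were added after their values were seen. Members and lists were chosen with earlier results of these data known. Replicates of 1 group differed beyond counting noise.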

Additional observations from a re-analysis of the deposited data

Results flagged for a closer look

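Among 42 sets of 4 samples (14 genes in 3 groups), 3 had 1 value far from the other 3, and chance flags about 1 in 20 sets. Heterozygous control replicate 2 had the lowest Kif14 of its group, 579 CPM. ΔMT/ΔMT replicate 1 had the highest Kif23, 558 CPM. ΔMT/ΔMT replicate 2 had the highest Kif5c, 90.5 CPM. In the ΔMT/WT library, which entered no comparison, Kif5a stood at 0.438 CPM, above the 0 to 0.196 CPM of wild type, a level of few reads.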

How the results depend on the processing

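Of 40 calls on single members, all stayed under DESeq2 and its size factors, 34 without a filter on low counts (Kif11, Kif23 and Kif5c in ΔMT/ΔMT, Kif2a in SOM/SOM, and Kif1b and Kif28 in the double mutant were lost), 35 with the compared groups alone, 14 of 15 with a term for age over 30 weeks (Kif28 in the double mutant was lost) and 15 of 15 with a Gm42418 covariate. A filter at a mean of 5 CPM kept 33 of 35 and gave no value for Kif27 and Kif28. The calls of Kifc1 in 5 comparisons and of Kif5b in 4 were kept under every alternative run. The count in ΔMT/ΔMT became 14 with the compared groups alone, and that in the RNAi mutant became 8 with DESeq2 and 8 with the Gm42418 covariate. Leaving out each sample in turn gave 4 to 8 calls in ΔMT/ΔMT, 9 to 14 in SOM/SOM, 4 to 7 between them, 2 to 7 in the RNAi mutant and 8 to 10 in the double mutant, and 0 between the double and the RNAi mutant. Differences near 0 changed sign: Kif5b between SOM/SOM and ΔMT/ΔMT to 0.0039 with the 5 CPM filter (-0.13 to 0.0283 leaving out samples), and, in the double mutant against the RNAi mutant, Kif2c to 0.0003 with that filter (-0.0574 to 0.04) and Kifc5b to 0.016 with it and 0.0068 with the Gm42418 covariate (-0.079 to 0.0734). The cause was not tested.

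In the single-end run samples with the same replicate number deviated together no more than others (correlations -0.03 to 0.05, beside -0.08 to 0.10). In the paired-end run same-number pairs gave -0.07 to 0.18, beside -0.18 to 0.11 for other pairs. The highest was double mutant replicate 2 with control replicate 2. The 2 RNAi mutant samples deviate as mirror images by construction. The check therefore does not settle whether the paired-end numbers pair samples. With a replicate block 26 of 40 calls stayed, those of Kifc1 and Kif5b among them, the count fell to 4 in ΔMT/ΔMT and 3 in SOM/SOM against ΔMT/ΔMT, and Kif2c in the double mutant against the RNAi mutant became 0.006. The calls lost were Kif11, Kif18a, Kif1b, Kif23, Kif27 and Kif5c in ΔMT/ΔMT and Kif27 in SOM/SOM. Between SOM/SOM and ΔMT/ΔMT, Kif20a (adjusted p = 0.055) and Kifc5b (0.05004) were lost. In the crosses they were Kif2c and Kif28 in the RNAi mutant and Kif14 (0.063), Kif1b and Kif28 in the double mutant.

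Depth limits members near 1 CPM or below, such as Kif28, and SOM/SOM replicate 3, with the smallest total, has the least precise values.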
